A study of Mus musculus with 8 samples.

Results

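The genes described here encode the carboxylesterase Ces1d, the lipases Lpl, Pnpla2, Lipe and Mgll, the lipid droplet coat protein Plin2, the fatty acid transporter Cd36, the fatty acid binding proteins Fabp4 and Fabp5 and the triacylglycerol synthase Dgat2. They were taken by name, as every probe set that the platform annotation assigns to exactly 1 of these 10 symbols, which gave 21 of the 45141 probe sets on the array and 10 of the 17097 named genes. The genes were chosen by name with the differences between old and young mice on these arrays already known, and Ces1d was picked for its increase with age. Its values are therefore given as a description with no test, and the calls of the other members are read only as their place in a fit across all genes.

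Dermal fibroblasts were sorted from 4 old (18 months) and 4 young (2 months) male C57Bl/6 mice, with 1 array per mouse, so replicates are separate animals. No mouse is described as carrying a transgene or receiving a treatment. The subdermis was removed before digestion, and the sorted cells lacked CD45, CD117, CD24, CD31 and EpCam and carried Pdgfra and CD34. RNA of 5000 cells per mouse was amplified for 21 cycles.

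Triacylglycerol is stored in lipid droplets and taken apart in steps. Pnpla2 (adipose triglyceride lipase) removes the first fatty acid, Lipe (hormone-sensitive lipase) acts on the resulting diacylglycerol and Mgll splits the remaining monoacylglycerol. Lpl acts outside the cell on the triacylglycerol of lipoproteins, and Cd36 and the fatty acid binding proteins carry the released fatty acids across the membrane and through the cytosol. Ces1d, also named triacylglycerol hydrolase, resides in the endoplasmic reticulum and is best known from liver and adipocytes. In skin several of these genes, but not all, are best known from the adipocytes below the dermis. Fibroblasts are the collagen-making cells of the dermis itself.

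The RefSeq promoter table (build GRCm38.p6) held 7 windows of 5 members, Pnpla2, Lipe, Mgll, Plin2 and Cd36. Each window runs from 250 bases before to 50 bases after a transcript start. The windows below are shown because these 3 enzymes act in turn on the droplet that Plin2 coats, and of the 3 only Mgll passed the test described further on. Capitals mark CACGTG, an E-box, which is its own reverse complement.
Pnpla2 chr7:141454938-141455237, + strand: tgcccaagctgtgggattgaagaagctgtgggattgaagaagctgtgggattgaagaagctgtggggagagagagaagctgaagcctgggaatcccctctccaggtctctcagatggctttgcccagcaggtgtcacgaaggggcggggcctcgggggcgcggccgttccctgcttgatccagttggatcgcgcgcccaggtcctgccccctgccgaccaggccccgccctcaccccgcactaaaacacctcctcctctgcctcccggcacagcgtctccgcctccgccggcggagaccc
Lipe chr7:25395938-25396237, - strand: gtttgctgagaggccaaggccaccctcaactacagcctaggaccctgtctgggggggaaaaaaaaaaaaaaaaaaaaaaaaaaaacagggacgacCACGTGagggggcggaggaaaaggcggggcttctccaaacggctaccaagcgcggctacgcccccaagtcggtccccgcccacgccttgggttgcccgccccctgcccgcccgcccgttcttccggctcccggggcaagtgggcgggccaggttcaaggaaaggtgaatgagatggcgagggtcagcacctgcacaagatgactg
Mgll chr6:88724162-88724461, + strand: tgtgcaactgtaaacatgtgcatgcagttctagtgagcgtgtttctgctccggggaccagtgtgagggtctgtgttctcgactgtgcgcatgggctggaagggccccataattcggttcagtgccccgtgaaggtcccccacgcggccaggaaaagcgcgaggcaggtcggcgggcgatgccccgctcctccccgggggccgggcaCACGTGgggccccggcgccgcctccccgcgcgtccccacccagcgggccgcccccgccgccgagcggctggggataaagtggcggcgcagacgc
Plin2 chr4:86670010-86670309, - strand: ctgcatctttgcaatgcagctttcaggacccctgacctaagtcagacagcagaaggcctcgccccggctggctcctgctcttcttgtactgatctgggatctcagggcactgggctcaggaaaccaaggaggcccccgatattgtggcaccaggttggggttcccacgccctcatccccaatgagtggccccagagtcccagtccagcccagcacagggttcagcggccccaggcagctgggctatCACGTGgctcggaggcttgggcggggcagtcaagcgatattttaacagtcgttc
CACGTG was present once in each of the windows shown for Lipe, Mgll and Plin2 and not in that of Pnpla2. It was also not in the other window of Lipe, the other window of Mgll or the window of Cd36. Of all 32851 windows in the table, 7.15% held it. With either strand counted as a match, AGGTCA (a nuclear receptor binding motif) was found in the windows of Plin2 and Cd36. It was found in 16.3% of all windows. TATAAA was found in none of the 7 windows and in 13.6% of all. GGGCGG was found in every window but the other one of Lipe, and in 35.7% of all. CCAAT was found in the windows of Plin2 and Cd36 and in 37.4% of all. A match of letters is a description of the window and not a bound site.

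All values below are log2 RMA values. Median values of the 8 arrays ranged from 5.06 to 5.14. A probe set was called dim when its mean over all arrays lay below 5.10, the median of all probe set means. The 23 non-specific control probe sets had a median of 3.91 with single values from 2.98 to 7.20, so a value above 5.10 can still lie within their range. The brightest probe set of Cd34 lay between 10.97 and 11.05 in old and between 10.76 and 10.90 in young mice, while that of Pdgfra, the other positive marker of the sort, lay at 4.22 to 4.85 in old and 4.78 to 5.36 in young mice and was dim on average. Adipoq and Lep, which define adipocytes, were at or below 4.08 in every mouse, and the leukocyte gene Ptprc averaged 3.51 in old and 3.43 in young mice. Other genes of these lists were brighter, and 3 of 7 adipocyte and 4 of 12 leukocyte markers were not dim. Plin4 of the adipocyte list lay at 6.78 to 7.11 in old and 6.55 to 6.71 in young mice. Of the leukocyte list, Csf1r lay at 8.73 to 8.93 in old and 8.54 to 9.02 in young mice. Cd68 lay at 6.41 to 7.26 in old and 6.33 to 6.85 in young mice. Thy1, a fibroblast surface gene, fell by 0.61 ± 0.07 (SE). Keratinocyte markers were uneven, and the mean level of 10 such genes was 5.45 to 6.89 in old mice, with old replicate 3 the highest, and 5.24 to 5.87 in young mice. None of these 10 passed, and 8 were higher in old mice. Epcam, whose protein the sort excluded, lay at 5.23 to 5.61 in old and 4.96 to 5.13 in young mice. Its groups did not overlap, and its change was 0.40 ± 0.10 (SE; limma adjusted p = 0.0584). The part of these 10 genes in the results below was not tested. In a list of 7 melanocyte markers Mlana rose (2.88 ± 0.34, SE), and in a list of 6 pericyte and smooth muscle markers Kcnj8 rose (1.16 ± 0.16), with no other gene of either list past the threshold. The mean level of 4 sebocyte markers was 5.51 to 5.645 in old and 5.292 to 5.495 in young mice. All 4 were higher in old mice, none passed and 3 were dim. Mgst1, the one that was not dim, changed by 0.46 ± 0.13 (SE; limma adjusted p = 0.111). The part of sebocytes in the results below was not tested.

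Beside Ces1d, which was chosen for its increase, Lpl and Mgll rose with age, and the other 7 members did not pass limma's threshold of adjusted p under 0.05 in either direction. Over all genes 3.97% passed in either direction and 1.82% were higher in old mice. The median change of the members was 0.21 and that of all genes 0.01. Values of old and young mice did not overlap for 5 members, Ces1d, Lpl, Mgll, Pnpla2 and Dgat2 (9.7% of all genes, 4.49% with the old mice higher). Since the members were collected with this contrast in view, nothing is read from these shares. Fewer cells of a type and less RNA per cell cannot be told apart in such bulk samples.

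**Figure D1:**
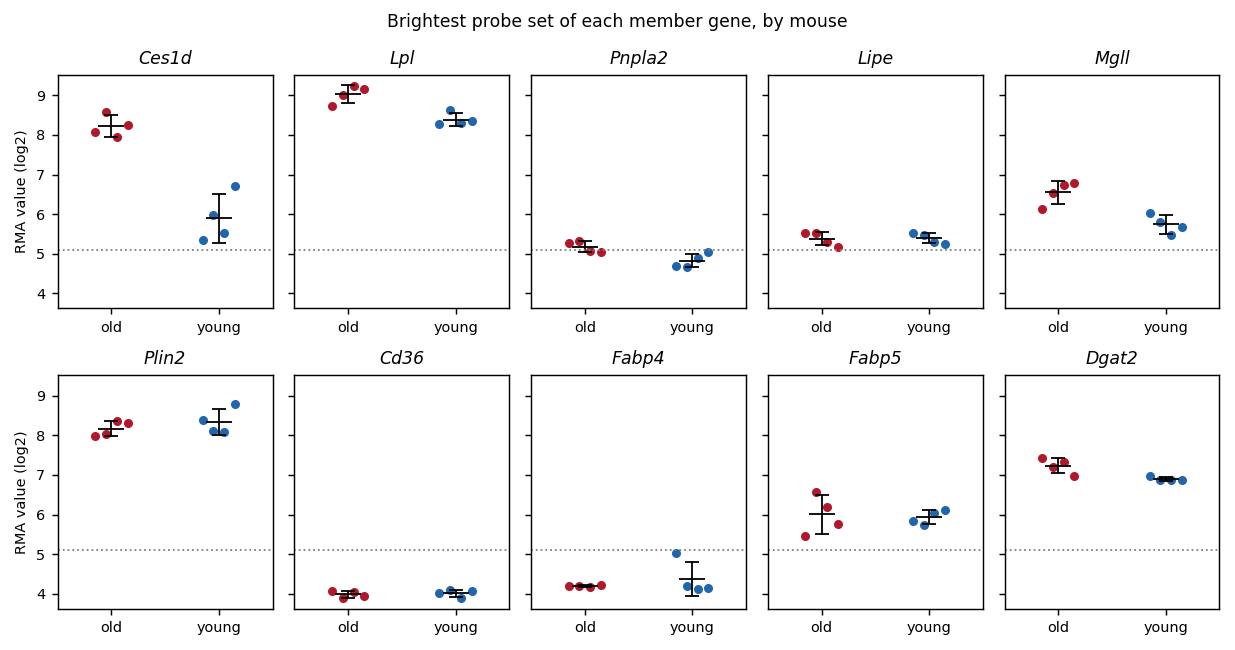
RMA values (log2) of the brightest probe set of each member in each old (red) and young (blue) mouse, with the mean and SD (n = 4 each) in black and the dim threshold of 5.10 as a dotted line. Old and young mice stand apart for Ces1d and by less for Lpl and Mgll, while Cd36 lay below the threshold in every mouse.

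Ces1d had the largest difference of the 10 genes. Its only probe set read 8.08, 8.59, 7.96 and 8.26 in old mice, against 5.36, 5.98, 5.52 and 6.72 in young mice. The lowest old mouse lay above the highest young mouse, young replicate 4, which stood nearest to the old group. The means were 8.22 ± 0.27 in old and 5.90 ± 0.61 in young mice (SD, n = 4 each), a difference of 2.33 ± 0.27 (SE) or 5.02-fold. With 1 mouse left out at a time the difference ranged from 2.15 to 2.60.

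Other Ces1 genes lie next to Ces1d. RefSeq places 8 Ces1 genes one after the other on chromosome 8 with 0 other protein-coding genes between them, and Ces1d lies between Ces1c and Ces1e. The array named 4 of the other 7, and none of them passed. Ces1c changed by 0.11 ± 0.08, Ces1e by 0.10 ± 0.10, Ces1f by 0.21 ± 0.20 and Ces1g by 0.04 ± 0.07 (SE). All 4 were dim on average, where a change could be missed. The probe set of Ces1f is of the kind that can bind transcripts of several genes. How far probes of Ces1d bind its close relatives was not tested.

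**Figure D2:**
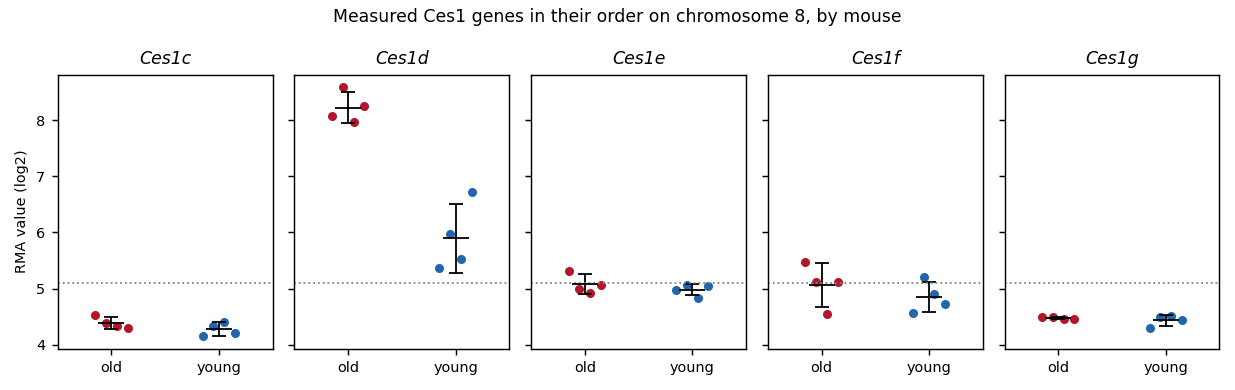
RMA values (log2) of the 5 measured Ces1 genes, in their order on chromosome 8, in each old (red) and young (blue) mouse, with mean and SD in black and the dim threshold dotted. Old and young mice stand apart for Ces1d and overlap for Ces1c, Ces1e, Ces1f and Ces1g.

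The 5 genes whose values ran most like those of Ces1d over the 8 arrays, among 10559 other genes above the dim threshold, were Birc3, Akap12, Duoxa1, Itpr3 and Pex13. Pearson's r was 0.985 for Birc3, an inhibitor of apoptosis, and 0.969 to 0.977 for the rest. Since the arrays fall into an old and a young cluster, these values mostly measure the shared difference with age. On deviations from the mean of each age, r with Ces1d was 0.861 for Birc3, 0.803 for Akap12 (a scaffold protein of protein kinase A) and 0.682 to 0.732 for the other three. The arrays share their normalization, and no p is given.

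Lpl, the lipase that acts on lipoproteins, also rose. Its brighter probe set read 8.74, 9.01, 9.23 and 9.17 in old mice, against 8.27, 8.62, 8.31 and 8.36 in young mice. The groups did not overlap, with old replicate 1 and young replicate 2 closest to each other. Lpl rose by 0.65 ± 0.12 (SE), or 1.57-fold (limma adjusted p = 0.0168). The call did not hold when old replicate 4 was dropped (0.60, limma adjusted p = 0.0539), nor when young replicate 1 was (0.61, 0.0536), nor when young replicate 3 was (0.62, 0.055). The second Lpl probe set read 6.40, 6.54, 6.64 and 6.28 in old mice, against 6.05, 6.01, 6.19 and 6.52 in young mice. There the groups overlapped through young replicate 4, and the change of 0.27 ± 0.12 did not pass (limma adjusted p = 0.384 over all 45141 probe sets).

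Mgll, which releases the last fatty acid and also breaks down the endocannabinoid 2-arachidonoylglycerol, was measured by 4 probe sets. The brightest read 6.14, 6.54, 6.73 and 6.80 in old mice, against 6.04, 5.81, 5.47 and 5.67 in young mice. Old replicate 1 and young replicate 1 were 0.10 apart, and the other mice stood further from the opposite group. Mgll rose by 0.81 ± 0.16 (SE), or 1.75-fold (limma adjusted p = 0.0242). Dropping a single mouse ended the call in 6 of 8 cases: limma adjusted p was 0.0669, 0.0686 and 0.068 without old replicates 2, 3 and 4 and 0.0559, 0.0654 and 0.0542 without young replicates 2, 3 and 4, with changes from 0.71 to 0.83.

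A further Mgll probe set, which may bind transcripts of several genes, read 5.55, 5.50, 6.14 and 5.66 in old mice, against 4.92, 4.84, 4.67 and 5.13 in young mice. It passed in the fit over all probe sets with a change of 0.82 ± 0.15 (limma adjusted p = 0.0226). The other Mgll probe sets changed by 0.42 ± 0.10, without overlap of the groups, and by 0.16 ± 0.08 on a dim probe set, and did not pass. All 4 thus had a higher mean in old mice.

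Pnpla2 and Lipe, the enzymes that act before Mgll, did not pass. Pnpla2 read 5.28, 5.33, 5.08 and 5.05 in old mice, against 4.70, 4.68, 4.89 and 5.04 in young mice, close to the dim threshold. The groups met without overlap at old replicate 4 and young replicate 4. Its change was 0.36 ± 0.10 (SE; 95% interval 0.13 to 0.59; limma adjusted p = 0.102). Lipe read 5.52, 5.52, 5.30 and 5.18 in old mice, against 5.53, 5.47, 5.31 and 5.26 in young mice. Both ages covered the same range, and the change was -0.01 ± 0.10 (95% interval -0.24 to 0.21). Its second probe set was dim and changed by -0.06 ± 0.07.

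Plin2, which coats droplets in most cell types, read 7.97, 8.04, 8.37 and 8.30 in old mice, against 8.38, 8.10, 8.08 and 8.78 in young mice. The groups overlapped, with young replicate 4 the highest. The change was -0.17 ± 0.16 (SE; 95% interval -0.52 to 0.19; limma adjusted p = 0.743).

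Dgat2, which adds the last fatty acid in triacylglycerol synthesis, was measured by 2 probe sets of similar behaviour. The brighter read 7.43, 7.20, 7.32 and 6.98 in old mice, against 6.96, 6.88, 6.86 and 6.86 in young mice. The dimmer read 6.27, 6.42, 6.41 and 6.13 in old mice, against 5.92, 6.06, 5.94 and 5.91 in young mice. Neither overlapped, and neither passed. The changes were 0.34 ± 0.10 (limma adjusted p = 0.092 over genes) and 0.35 ± 0.08 (0.0548 over probe sets). On the mean of both probe sets, and on the brighter one without old replicate 4, Dgat2 passed (limma adjusted p = 0.0333 and 0.0298).

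Of the proteins that take up and bind fatty acids, Cd36 was dim in every mouse. Its 3 probe sets stayed between 3.69 and 4.31 in old mice and between 3.66 and 4.10 in young mice, and changes ranged from -0.03 to 0.09. Fabp5, the form known from epidermis, read 5.46, 6.58, 6.20 and 5.77 in old mice, against 5.83, 5.73, 6.05 and 6.11 in young mice. The old mice spread on both sides of the young ones, and the change was 0.07 ± 0.21 (SE; 95% interval -0.41 to 0.55). Its second probe set changed by 0.00 ± 0.13. On the brighter probe set the highest Fabp5 value came from old replicate 2, which had the lowest mean keratinocyte marker level of the old mice (5.45). The next highest, 6.20, came from old replicate 3, which had the highest such level (6.89). The part of keratinocytes in the Fabp5 values was not tested.

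Fabp4, the form known from adipocytes and capillary endothelium, was dim in all mice. Its brightest probe set read 4.20, 4.19, 4.17 and 4.23 in old mice, against 5.03, 4.20, 4.12 and 4.14 in young mice. Another read 3.94, 3.97, 3.85 and 3.76 in old mice, against 5.02, 3.81, 3.73 and 3.83 in young mice. Young replicate 1 stood alone in both. On the remaining probe set it read 4.12, within the young range of 4.04 to 4.21. The mean level of this mouse over 10 endothelial markers, 5.15, lay within the range of the old mice (5.01 to 5.21) and just above the other young mice (4.91 to 5.09). Of these markers, Pecam1, Cdh5, Cldn5, Emcn, Flt1, Tie1 and Esam were highest in this mouse among the young mice. Gpihbp1 was lowest in it, and Kdr and Tek lay within the range of the other young mice. The mean level of this mouse over 6 pericyte and smooth muscle markers was 5.51. Old mice lay at 5.52 to 5.58 there, with Kcnj8 raised, and the other young mice at 5.30 to 5.34. Rgs5 of this list read 5.69 in young replicate 1 and 4.77 to 4.94 in the other young mice. Notch3 read 4.96 in this mouse and 4.66 to 4.90 in the other young mice. Mcam, Myh11, Acta2 and Kcnj8 of this mouse lay within the range of the other young mice. Over 7 adipocyte markers, Fabp4 among them, its mean level was 5.09, and Adipoq read 3.71. Old mice lay at 4.90 to 5.13 and the other young mice at 4.84 to 4.96. The part of such cells in the Fabp4 value was not tested. Without this mouse the Fabp4 change was 0.04, against -0.18 ± 0.18 (SE) with it, and neither passed.

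**Figure D3:**
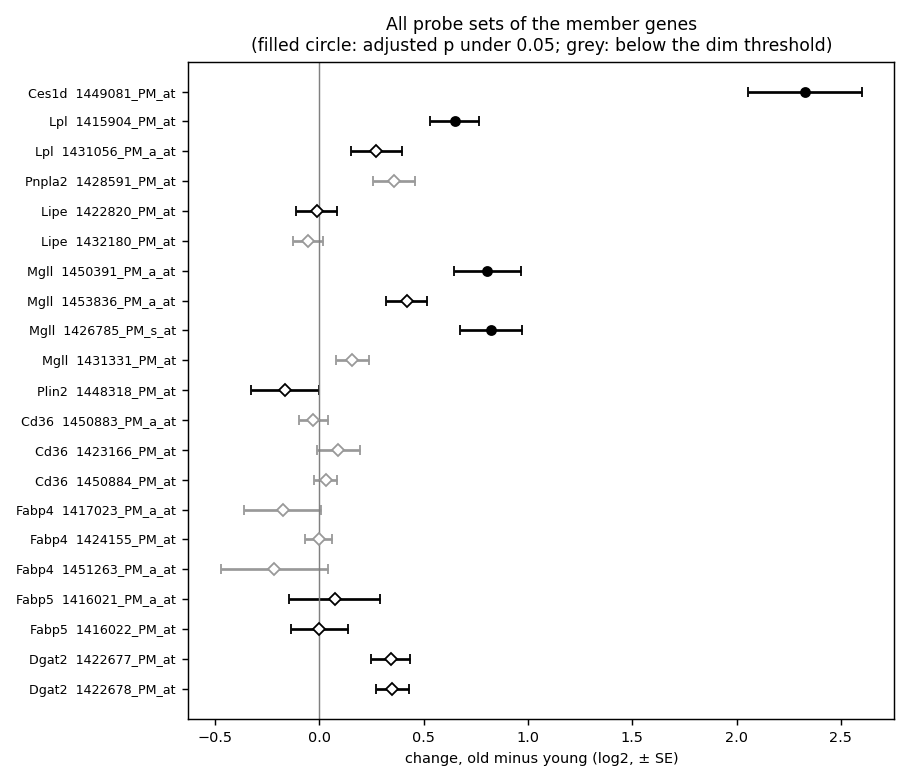
Change of each of the 21 member probe sets, old minus young (log2, bars show SE), with filled circles where the limma adjusted p over all probe sets was under 0.05 and grey for dim probe sets. The brighter probe set of Lpl and 2 of Mgll are filled, as is that of Ces1d, chosen for this change. The probe sets of Cd36 lie between -0.03 and 0.09 and those of Fabp4 between -0.2175 and -0.0025.

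Across all 21 probe sets, 4 were past the threshold and higher in old mice, counting that of Ces1d, which the choice of the gene put there (2.57% of all probe sets passed). Groups did not overlap for 8 of the 21 (8.42% of all probe sets). Of the 21, 9 were dim. The probe sets of a gene share transcripts and mice and are not independent replicates.

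The numbers in the sample titles form 2 runs of consecutive numbers, with 2 old and 2 young mice in each. This is the makeup stated for a collection day, though no label ties the runs to days. Within the first and the second run, Ces1d differed by 2.67 and 1.99, Lpl by 0.43 and 0.87 and Dgat2 by 0.40 and 0.29 between old and young mice. Mgll differed by 0.42 in the first run and 1.20 in the second, and Pnpla2 by 0.62 and 0.10. All 5 kept their direction in both runs. In limma's interaction term, fitted across all genes, the adjusted p of this difference between the runs was 0.537 for both genes, and theirs were the only member values with an unadjusted p under 0.05. Over all genes 0 passed that test after adjustment and 7.33% had an unadjusted p under 0.05. Between the runs themselves, with age in the fit, no member passed (0.0468% of all genes did), and Lipe alone had an unadjusted p under 0.05 (16.6% of all genes). The lowest adjusted p was that of Lipe, at -0.25 ± 0.06 (SE) for the second minus the first run (limma adjusted p = 0.126).

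**Figure D4:**
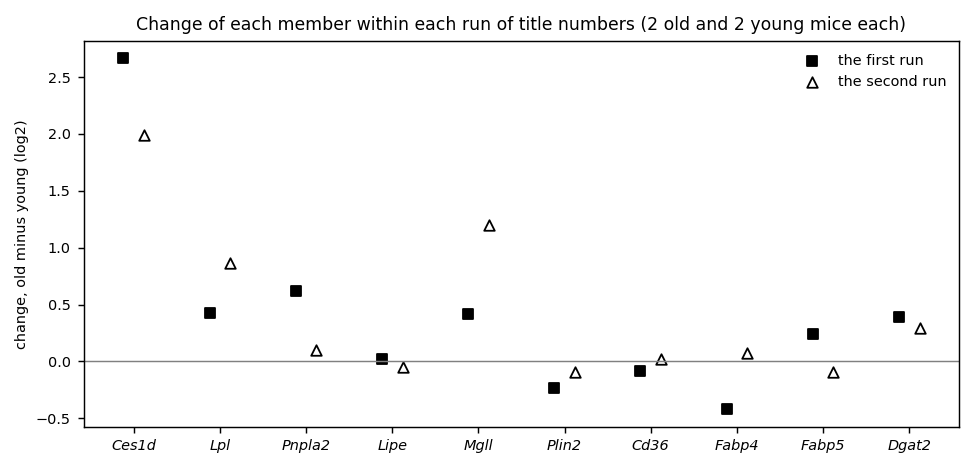
Change of each member, old minus young (log2), within each run of title numbers, as the difference of 2 old and 2 young mice. Ces1d, Lpl, Pnpla2, Mgll and Dgat2 lie above 0 in both runs, with Mgll at 0.42 and 1.20 and Pnpla2 at 0.62 and 0.10.

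Of 118 other genes of lipid handling in 7 lists, 98 were measured, and 3 of these fell and none rose, where 3.97% of all genes passed in either direction and 2.15% fell. An unadjusted p under 0.05 was found for 18 of the 98 and for 15.1% of all genes. Their median change was 0.02. The lists were chosen with earlier results of these arrays known.

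Cav1, the main protein of caveolae, at which fatty acids enter many cells, fell most. It read 7.95, 8.14, 8.27 and 8.38 in old mice, against 9.14, 9.38, 9.84 and 9.34 in young mice. The groups lay far apart, and the fall was 1.24 ± 0.15 (SE; limma adjusted p = 0.00204). It was the only one of 18 genes of fatty acid uptake, binding and activation that passed, and Cavin1, which shapes caveolae with it, changed by -0.14 ± 0.13.

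Angptl4, a secreted inhibitor of Lpl, fell while Lpl rose. It read 7.64, 7.85, 7.69 and 7.57 in old mice, against 8.16, 8.19, 8.11 and 8.09 in young mice. No old mouse reached the lowest young one, and the fall was 0.45 ± 0.07 (SE; limma adjusted p = 0.00957). This probe set is of the kind that can bind transcripts of several genes. A second, dim probe set changed by 0.10 ± 0.12, and on the mean of both the call was lost (-0.18, limma adjusted p = 0.335). Gpihbp1, which anchors Lpl to capillaries, and Lmf1, which matures it, changed by 0.09 ± 0.06 and -0.32 ± 0.15 and did not pass. None of the other 9 measured genes of this list passed.

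Among 14 carboxylesterases and neighbouring esterases, Ces2b fell by 0.74 ± 0.17 (SE; limma adjusted p = 0.0497). It read 4.40, 4.28, 4.73 and 4.64 in old mice, against 4.98, 5.75, 5.29 and 4.98 in young mice. The groups did not overlap, but the probe set was dim. Of the 8 mice, only young replicate 4 could be dropped with the call kept (limma adjusted p = 0.0441). Dropping any of the other 7 gave an adjusted p of up to 0.139, and the change ranged from -0.83 to -0.57. With all mice the call was also lost with the run of title numbers as a block (limma adjusted p = 0.0544) and the robust prior (0.0521). It was lost too with arrays centred on their median (0.0642), renewed quantile normalization (0.0524) and in the fit over probe sets (0.0682). It was lost as well with each gene's dimmest probe set above the dim threshold (0.0543), a choice that kept the single Ces2b probe set. Of 16 alternatives of the gene fit, Ces2b passed in 4.

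In the remaining lists no gene passed in the fit across all genes with all mice. Of 15 genes of intracellular lipolysis, Daglb, a diacylglycerol lipase, had the smallest p (0.30 ± 0.11, limma adjusted p = 0.198). The droplet coat gene Plin4 had the smallest p of 13 lipid droplet genes (0.34 ± 0.09, SE; limma adjusted p = 0.0647). Dgat1, the other triacylglycerol synthase, had that of 15 synthesis genes (0.23 ± 0.09, limma adjusted p = 0.26). Of 13 fatty acid oxidation genes, Cpt1a, the carrier enzyme that admits fatty acids to mitochondria, had the smallest p (-0.75 ± 0.19, SE; limma adjusted p = 0.0627). Other settings took some of these past the threshold. Plin4 passed with the run of title numbers as a block (limma adjusted p = 0.0315), on the mean of probe sets (0.0495) and without old replicate 3 (0.0276). Cpt1a passed with the prior set by mean level (0.0434), with array weights (0.0422) and with dim genes left out (0.0394), and Daglb with array weights (0.0344) and without old replicate 1 (0.0412).

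**Figure D5:**
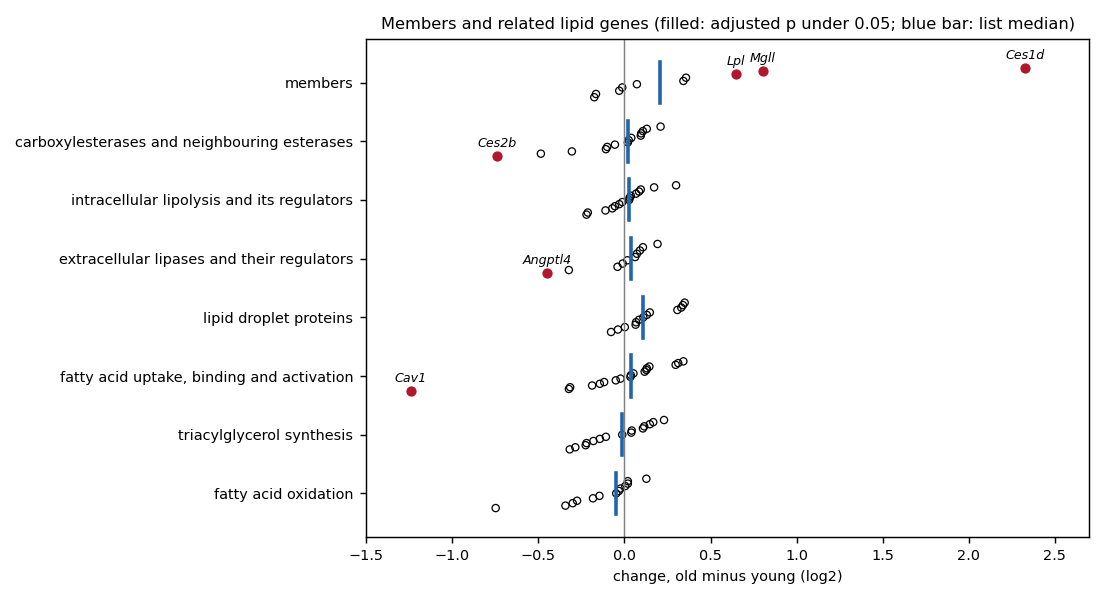
Change, old minus young (log2), of the 10 members and of the 98 measured genes in 7 related lists, with filled points where the limma adjusted p over all genes was under 0.05 and a blue bar at each list's median. Lpl and Mgll are filled on the right beside Ces1d, which was chosen for this change, and Ces2b, Angptl4 and Cav1 on the left.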

How the data were processed

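Affymetrix arrays of 4 old and 4 young mice were compared. The authors deposited log2 values, 1 for each probe set and mouse, and the submitters' processing notes name RMA and affy without a version or settings. RMA brings all arrays to a common distribution, so a shift shared by most genes would be removed. Arrays give no read depth, and their number limits the precision. Genes were named from the platform annotation, and no genome build is stated in the sources used here. For each of the 17097 genes the probe set brightest over all 8 arrays was taken, from 28898 probe sets with a single symbol. The 2-sided comparison of old with young mice used limma (version 3.58.1, R version 4.3.3; lmFit, eBayes) with Benjamini-Hochberg adjustment over all genes, or over all 45141 probe sets where stated. Changes are old minus young, and SE and 95% intervals come from that fit. The fit was tested on simulated data. Members, lists, tests and alternatives were chosen with earlier results of these data known. The text names all members, the related genes that passed (at most 4 a list, or the smallest p where none did) and the 5 genes most like Ces1d. The markers given by name, Cavin1, Gpihbp1 and Lmf1 fall outside this rule and were named after their values were seen. Alternatives changed the prior, array weights, dim filter, probe set choice, scaling, the run block and the set of mice.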

Additional observations from a re-analysis of the deposited data

Results flagged for a closer look

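Among the 42 sets of 4 mice (21 probe sets, 2 ages), 3 held a mouse far from the others, where chance gives about 1 in 20. Fabp4 read 5.03 in young replicate 1 on one probe set, where the next young mouse read 4.20, and 5.02 on another, where the next read 3.83. Fabp5 read 5.65 in young replicate 3 on its dimmer probe set, where the other young mice read 5.84 to 5.87. Both Fabp4 values come from the same mouse and are not independent.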

How the results depend on the processing

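Counts of members include Ces1d, which was chosen for this change, so that its place in them is no sign of stability. The count of members past limma's threshold was 3, and 2 to 4 under each alternative prior, weighting, filter, probe set choice, scaling and the run block. Leaving out 1 mouse gave 1 to 3, and neither Lpl nor Mgll was called without young replicate 3. The count of member probe sets, 4, was 4 or 5 under the other settings and 1 to 4 without 1 mouse: young replicate 3 left out gave 1, and 2 were past the threshold with either of old replicates 2 and 3, or either of young replicates 2 and 4, left out. The count of related genes, 3, was 6 with array weights and 2 to 4 without 1 mouse. Members called by run or by the age and run interaction numbered 0 in every setting tried (2 members had an unadjusted p under 0.05 for the interaction). No called change turned its sign. Of 17 alternatives, Lpl passed in 13 and Mgll in 11. On its dimmer probe set Lpl changed by 0.27 (limma adjusted p = 0.365). The members' median, 0.21, was 0.34 with dim genes left out, since that filter removed Pnpla2, Cd36 and Fabp4. Dim probe sets limit what can be said of Cd36, Fabp4, Pnpla2 and the Ces1 relatives.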
